A study of Rattus norvegicus with 18 samples.

Results

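Between Brown Norway (BN) and Sprague Dawley (SD) rats, 8 genes of the 15443 named on the array differed in blood by some of the widest margins measured. They are Sik1, Vegfb, Echdc2, Ascl3, Retnla, AA926063, Itln1 and Gpr15lg, found through the RefSeq accession of each probe. The members were selected on the difference in Cy5 signal between BN and SD, so the strain differences below describe that choice and carry no test. The responses to the drug within each strain were not used to choose them. Sik1, Vegfb, Ascl3 and Retnla were lower in BN, and Echdc2, AA926063, Itln1 and Gpr15lg were higher in BN. In the strain contrast the members ranged from Sik1, the widest of the 13648 named genes tested under the normalisation used, to Ascl3, at rank 14. The rank goes by the smaller of the differences in treated and in untreated rats: it was 2.63 on the log2 scale for Ascl3, and 2.49 for Cela1 just below it. Within that range Cyp2d5, Cyp2d1, Bcl2l15, Rhox5, Hbe1 and RT1-Ba also differed but are not members.

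The animals were male rats that received procainamide, an antiarrhythmic drug known for inducing lupus-like autoimmunity, at 40 mg/kg, or sterile water. There were 4 arrays of BN rats on procainamide, 4 of BN rats on water, 5 of SD rats on procainamide and 5 of SD rats on water, the last of each strain called controls. BN is an inbred strain and SD an outbred stock. The series asks how strains differ in drug-induced autoimmunity; Lewis rats, which its design text names, are not analysed here. Blood was taken at the end of treatment from the venous sinus of the eye, and its RNA was labelled with Cy5. Cy3 carried a reference of the same strain, by the labels the RNA of control replicate 1. Signals are given as normalised log2 intensities, and responses as changes in the log2 ratio of Cy5 to Cy3. Whether the strains differ in sequence under a probe was not tested, so strain differences are given as differences in probe signal. Whether every array is a different animal is not stated in the labels, so the p-values cover the scatter of these arrays alone, and their number limits the precision.

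Of 3 slides, the BN procainamide arrays filled slide 3 and the BN control arrays were on slide 2, which was scanned on another day than the others. Slide 1 held the SD control arrays and 3 of the SD procainamide arrays, and slide 2 the other 2. Median Cy5 spot intensities ran from 1694 to 3187 in BN procainamide and from 997 to 1986 in BN control; SD arrays ran from 1446 to 2876. Of the blood cell markers listed, 10 of 10 T cell, 10 of 10 monocyte and 9 of 10 neutrophil genes had a probe under their symbol. So had 11 of 12 eosinophil and basophil genes, and 6 of 8 in each of the B cell, platelet and erythroid lists. All of those with a probe were above background often enough to be tested.

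These genes do unlike work. Sik1 encodes salt-inducible kinase 1, which is itself induced through CREB and holds back CREB's coactivators, the CRTC proteins. Vegfb is a growth factor of the VEGF family that binds the receptor Flt1, and Echdc2 encodes a mitochondrial protein of the enoyl-CoA hydratase family. Ascl3 is a basic helix-loop-helix factor known from salivary duct cells. Retnla encodes a resistin-like secreted protein, known in mice from alternatively activated macrophages. Itln1 encodes intelectin, a lectin that binds microbial sugars and is known from goblet cells, and Gpr15lg the ligand of GPR15, a homing receptor of T cells. AA926063 is listed by RefSeq as a long non-coding RNA.

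Start site regions of 7 members were found in RefSeq (build GRCr8, from a BN rat), each covering 250 bases before the gene's start and 50 after it. The region of Sik1 is shown because it is dense in CpG, with 55 of these dinucleotides, and holds the core of the cAMP response element that CREB binds. The core searched on both strands was TGACG; it appears here on the other strand as CGTCA, in capitals, 191 and 180 bases before the start. The regions of Itln1 and Gpr15lg, both higher in BN, are shown because they hold 3 and 6 CpG and each a TATAAA on the gene's strand, in capitals, 41 and 31 bases before the start.
Sik1, chr20:9958597-9958896, minus strand: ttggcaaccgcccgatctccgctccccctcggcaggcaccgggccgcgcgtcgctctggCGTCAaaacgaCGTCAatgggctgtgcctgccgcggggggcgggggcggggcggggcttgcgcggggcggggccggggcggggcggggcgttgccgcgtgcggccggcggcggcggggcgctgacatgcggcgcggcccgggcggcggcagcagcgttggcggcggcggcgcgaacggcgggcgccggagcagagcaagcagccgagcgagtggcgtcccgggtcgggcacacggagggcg
Itln1, chr13:86480298-86480597, plus strand: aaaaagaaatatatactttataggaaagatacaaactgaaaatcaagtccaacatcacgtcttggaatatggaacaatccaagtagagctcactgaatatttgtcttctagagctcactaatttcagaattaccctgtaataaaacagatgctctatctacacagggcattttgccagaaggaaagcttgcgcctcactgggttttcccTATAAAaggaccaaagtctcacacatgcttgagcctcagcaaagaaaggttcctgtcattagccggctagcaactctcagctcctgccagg
Gpr15lg, chr16:12896085-12896384, minus strand: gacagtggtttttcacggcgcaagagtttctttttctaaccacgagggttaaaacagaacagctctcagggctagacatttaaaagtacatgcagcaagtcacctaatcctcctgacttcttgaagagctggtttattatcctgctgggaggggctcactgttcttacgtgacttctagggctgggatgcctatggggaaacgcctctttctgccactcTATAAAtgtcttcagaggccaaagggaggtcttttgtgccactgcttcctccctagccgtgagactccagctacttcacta
Of all 33469 start site regions in RefSeq's table, 21.2% hold TGACG or its complement and 8.8% hold TATAAA. The region of Retnla holds 0 CpG. Matches describe letters in the window and were not tied to the signals.

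Sik1 had the widest measured difference of the 8 under the normalisation used. Its log2 Cy5 signal was 7.997, 8.81, 8.03 and 8.90 on the BN procainamide arrays, against 7.63, 7.78, 7.74 and 7.45 on the BN control arrays. On the SD procainamide arrays it was 13.33, 13.60, 13.42, 13.82 and 13.79, against 13.59, 13.49, 13.60, 13.59 and 13.63 on the SD control arrays. Every BN array was thus far below every SD array, and within BN the treated arrays were all above the untreated ones. BN minus SD was -5.16 under procainamide and -5.93 in controls, a signal 35.7-fold and 60.9-fold lower in BN. With the scanner software's processed signals these differences were -5.74 and -6.75, where the dim Retnla measured -6.43 and -6.77.

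AA926063 showed the widest difference in the other direction under the normalisation used. It stood at 13.49, 13.62, 13.59 and 13.65 on the BN procainamide arrays, against 14.09, 13.56, 13.45 and 13.83 on the BN control arrays. The SD procainamide arrays had 9.71, 9.29, 9.49, 8.77 and 9.10, against 8.30, 7.94, 8.38, 8.37 and 8.05 on the SD control arrays. The strains were far apart, and in SD all treated arrays were above all untreated ones. BN minus SD was 4.31 under procainamide and 5.52 in controls, which is 19.9-fold and 46.0-fold. With the scanner software's processed signals it was 4.51 and 5.76, where Echdc2, dim in SD, measured 6.31 and 6.26.

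Vegfb was lower in BN, with 1 array unlike the rest. It had 9.04, 8.66, 8.66 and 8.85 on the BN procainamide arrays, against 8.12, 8.24, 8.26 and 11.75 on the BN control arrays. The SD procainamide arrays had 12.81, 12.78, 12.96, 12.77 and 12.78, against 12.95, 13.22, 12.99, 13.14 and 13.27 on the SD control arrays. BN control 4 was the only BN array above 9.04, and it still lay below every SD array. Both of its spots were bright, at 11.60 and 11.90. The reference in Cy3 was also higher on that array, at 10.81 against 9.82 to 10.02 on the other BN control arrays. Why both channels were raised there was not tested. BN minus SD was -4.02 under procainamide and -4.02 in controls; without BN control 4 the difference in controls was -4.91.

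Retnla was not well above background on any of the 8 BN arrays, which read 6.10, 6.21, 6.44 and 6.25 under procainamide and 6.54, 6.53, 6.405 and 6.598 in controls. In SD rats it read 9.50, 10.51, 8.93, 9.76 and 11.91 under procainamide, against 10.15, 11.97, 9.93, 10.26 and 10.72 in controls. The 2 SD groups overlapped, and each held 1 array near 12 with the others at 10.72 or below. The signal was at least 11.2-fold lower in BN under procainamide and at least 15.1-fold lower in BN controls. These bounds were taken from the dimmest probes well above background on the BN arrays. The SD of the log2 signal was 1.15 in the SD procainamide group, a spread wider than that of 99.9% of the probes tested, and 0.81 in the SD control group, wider than 99.5%.

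Echdc2 was the reverse case: clear in BN and near background in SD. It read 9.63, 10.04, 10.07 and 10.04 on the BN procainamide arrays and 9.72, 9.87, 9.76 and 9.99 on the BN control arrays. The SD procainamide arrays read 6.24, 6.26, 6.46, 6.33 and 6.22 and the SD control arrays 6.26, 6.02, 6.37, 6.23 and 6.57, with 0 of 5 and 1 of 5 well above background. The signal was at least 10.2-fold higher in BN under procainamide, and BN minus SD was 3.54 in controls. With the scanner software's processed signals, the measured difference in controls was 6.26 for Echdc2 and -6.77 for Retnla.

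Gpr15lg read 11.63, 11.66, 12.27 and 11.73 on the BN procainamide arrays, against 11.75, 11.97, 11.96 and 12.15 on the BN control arrays. BN procainamide 3 was the highest of these. In SD Gpr15lg lay between 8.60 and 8.85 under procainamide and between 8.76 and 8.90 in controls. BN minus SD was 3.13 under procainamide and 3.11 in controls.

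Itln1 varied most inside BN among the genes higher there. It read 10.25, 11.53, 11.41 and 10.83 on the BN procainamide arrays, against 10.48, 10.32, 8.98 and 9.92 on the BN control arrays. The SD procainamide arrays had 7.59, 7.53, 7.76, 7.05 and 7.30, against 6.93, 7.26, 7.18, 7.19 and 6.86 on the SD control arrays, of which 4 of 5 were well above background. The treated and untreated arrays of a strain overlapped in this signal in BN and in SD. BN minus SD was 3.56 under procainamide and 2.84 in controls, and with the scanner software's processed signals 4.58 and 4.07.

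Ascl3, at the end of the ranking, read 8.14, 7.997, 8.17 and 8.38 on the BN procainamide arrays, against 7.84, 7.68, 7.46 and 7.67 on the BN control arrays. In SD it read 10.93, 11.05, 10.97, 10.58 and 10.49 under procainamide, against 11.26, 11.40, 11.28, 11.30 and 11.33 in controls. The treated arrays of SD were all below the untreated ones, the lowest being the 2 on slide 2, and the treated arrays of BN, all on slide 3, were all above the untreated ones. BN minus SD was -2.63 under procainamide and -3.65 in controls.

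**Figure D1:**
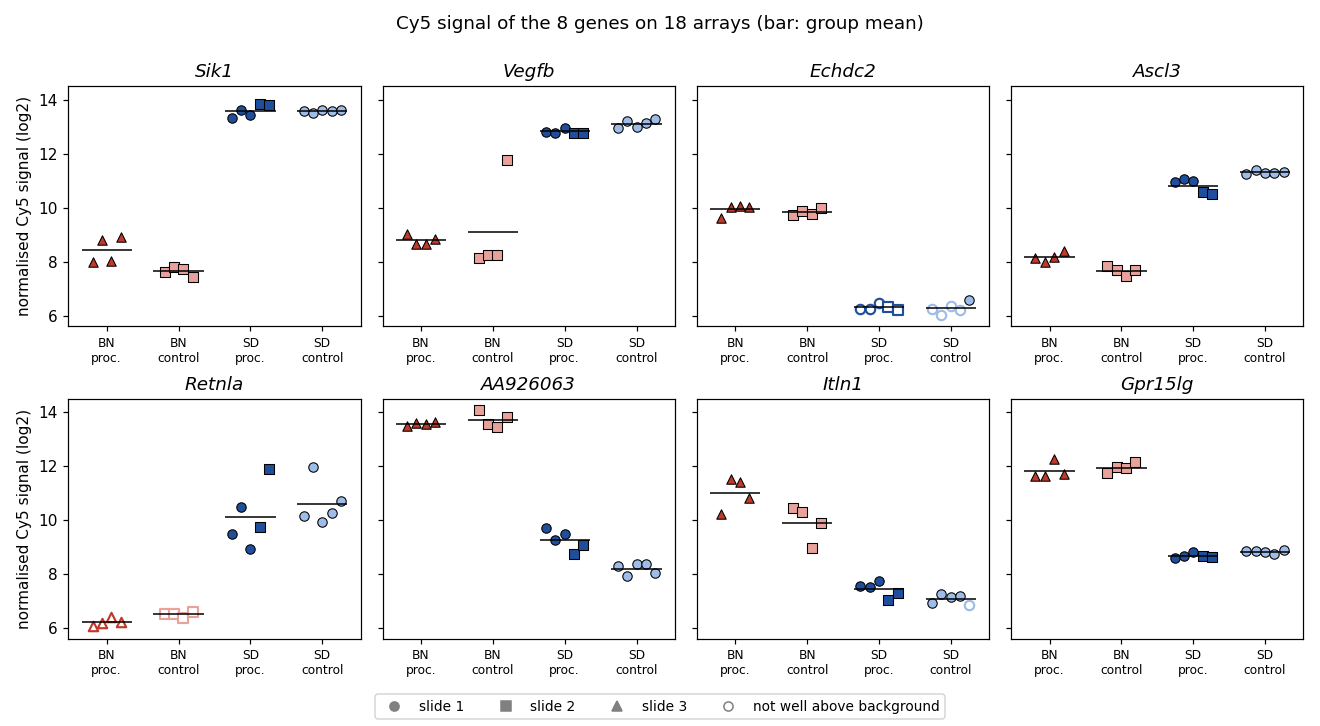
Normalised log2 Cy5 signal of the 8 genes on each array, by group, with the group mean as a bar. Marker shape gives the slide and open markers were not well above background. The BN arrays lie apart from the SD arrays for each gene, and BN control 4 is the high point of Vegfb at 11.75.

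No gene's BN and SD arrays overlapped, over all 18 arrays, where 2.06% of the probes tested were so separated. In controls alone 35% of probes were separated between the strains, under procainamide 14.4%, and in the same direction in both 3.18%. Nothing is read from the members' count, since this contrast chose them. The strains met on slide 2 in BN control arrays and 2 SD procainamide arrays, a comparison of different treatments in which 24.8% of probes were separated. There BN minus SD was -6.15 for Sik1, -3.68 for Vegfb and -2.87 for Ascl3. It was 4.80 for AA926063, 3.29 for Gpr15lg and 2.75 for Itln1. Retnla was at least 17.7-fold lower in BN and Echdc2 at least 10.5-fold higher in BN, since neither was well above background in the dim strain. The differences within that slide had the direction of those between slides for all 8 genes. That direction was fixed in advance, since the strains did not overlap over all 18 arrays, so nothing is read from it.

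The Cy3 channel measured the reference RNA of each strain on every array. Its BN and SD arrays were apart for all 8 genes, as for 16.1% of probes. Sik1 lay between 7.79 and 7.96 in the BN reference and between 13.37 and 13.99 in the SD reference. AA926063 lay between 13.61 and 13.95 in the BN reference and between 7.96 and 8.99 in the SD reference. Within a strain the same RNA read differently by slide for some genes. In the SD reference, Sik1 was 0.51 higher and Retnla 0.68 higher on slide 2 than on slide 1, and in the BN reference Ascl3 was 0.47 higher on slide 3 than on slide 2.

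**Figure D2:**
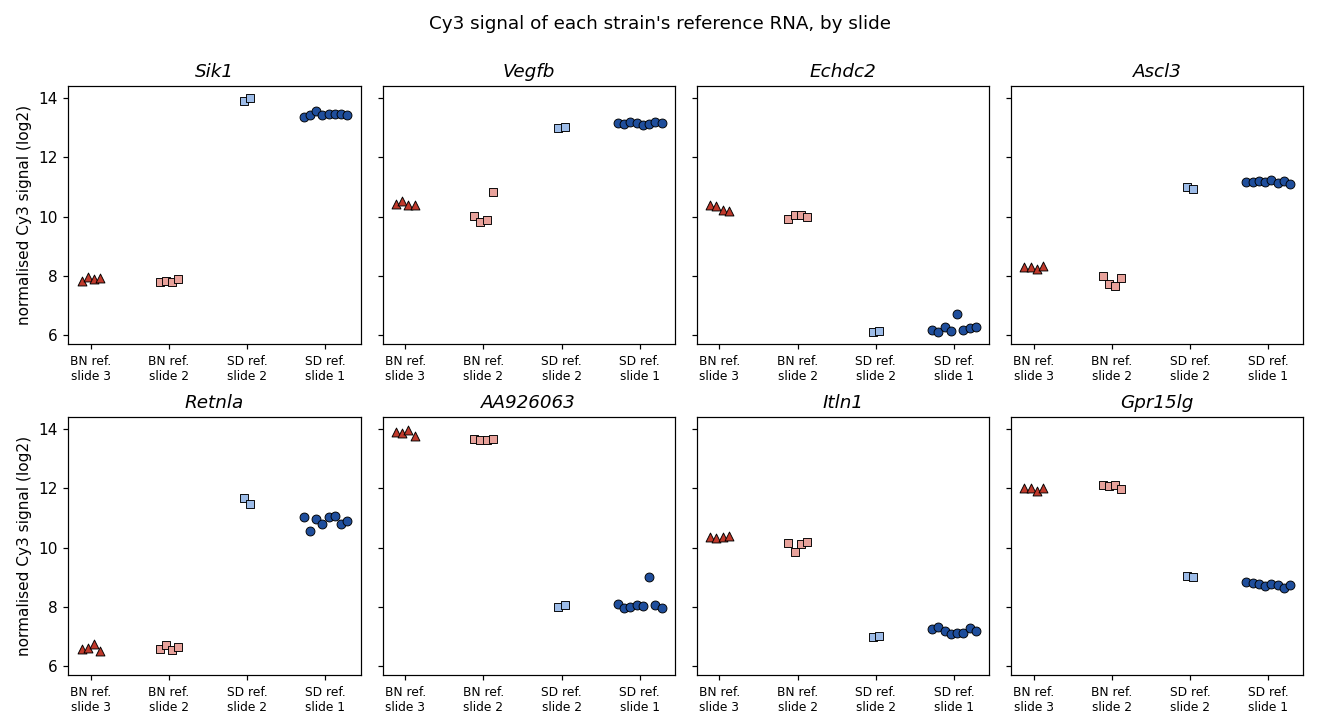
Normalised log2 Cy3 signal of the reference RNA for each gene, by strain and slide, with 1 point per array. The strains are apart for each gene, and Sik1 in the SD reference sits higher on slide 2 (13.90 and 13.99) than on slide 1.

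The reference was also set beside its label for Vegfb and Retnla. On the array of BN control 1, whose channels hold the same RNA by the labels, Vegfb read 8.12 in Cy5 and 10.02 in Cy3. Over the BN arrays its Cy3 signal lay between 9.82 and 10.81, and the log2 of the mean BN control level in Cy5 was 10.08. On the array of SD control 1, Retnla read 10.15 in Cy5 and 11.02 in Cy3. Its Cy3 signal over the SD arrays lay between 10.56 and 11.66, and the log2 of the mean SD control level was 10.82. For both genes the reference lay nearer to the mean of the controls than to control 1. For Ascl3 it lay nearer to control 1 in both strains. In BN its mean Cy3 was 8.06, against 7.84 for control 1 and 7.67 for the mean. In SD it was 11.12, against 11.26 and 11.31. Over all probes tested, the mean Cy3 profile differed from the mean of the controls by a root mean square of 0.39 in BN and 0.17 in SD on the log2 scale. From control 1 it differed by 0.43 in BN and 0.25 in SD. Of the single controls, control 1 was the nearest in BN, with the others at 0.44 to 0.50. In SD the nearest was control 2, at 0.21. A mean of several arrays scatters less than 1 array, so these distances cannot tell which RNA the reference held.

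**Figure D3:**
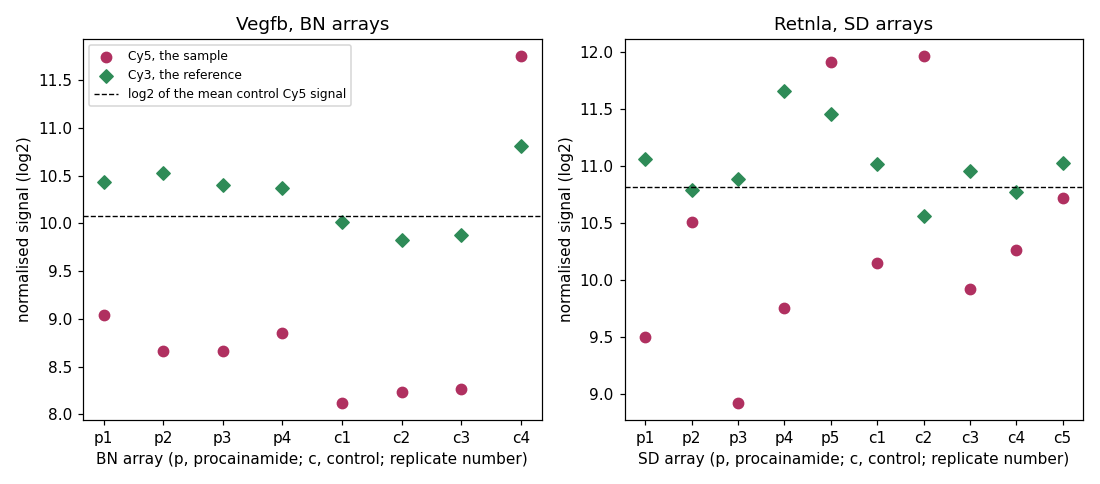
Normalised log2 signal of Vegfb on the BN arrays and of Retnla on the SD arrays, in Cy5 (the sample) and Cy3 (the reference). The dashed line is the log2 of the mean control level in Cy5, 10.08 for Vegfb and 10.82 for Retnla.

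Procainamide was followed by higher Sik1 in BN and by higher AA926063 and lower Ascl3 in SD. By limma with Benjamini and Hochberg's adjustment over all 26496 probes tested, 1 of the 8 genes passed an adjusted p of 0.05 in BN, where 21.8% of probes did. In SD 2 of 8 passed, where 2.74% of probes did. The ratios of treated and untreated arrays did not overlap for 19.5% of probes in BN and 7.53% in SD. Changes of Retnla in BN and of Echdc2 in SD are not given, since those groups were at background.

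In BN, Sik1 rose by 0.71 ± 0.16 (SE, n = 4 and 4, limma adjusted p = 0.00487). Its log2 ratio was 0.16, 0.85, 0.15 and 0.97 on the treated arrays, against -0.17, -0.03, -0.05 and -0.47 on the controls, with treated arrays 2 and 4 the highest and no overlap between the groups. The BN groups lay on different slides and were scanned on different days. A scan day term is estimated from the SD procainamide arrays alone, the only group scanned on both days. With the scan day as a term the change was 0.55 with a limma adjusted p of 0.420, and with array brightness as a term 0.39 with 0.331. With the scanner software's own log ratios it was 1.22 with 0.00126. In SD the change of Sik1 was -0.19 ± 0.14 (limma adjusted p = 0.558).

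In SD, AA926063 rose by 0.88 ± 0.15 (SE, n = 5 and 5, limma adjusted p = 0.00429). The log2 ratio was 0.72, 1.23, 1.53, 0.76 and 1.05 on the treated arrays, against 0.19, -0.02, 0.39, 0.32 and 0.01 on the controls, with no overlap. With the slide as a block over the SD arrays it was 0.98 (limma adjusted p = 0.0232), and the 3 treated arrays of slide 1 alone exceeded the controls of that slide by 0.98. In BN the change was -0.37 ± 0.16 (limma adjusted p = 0.122).

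Ascl3 fell in SD by 0.39 ± 0.08 on the log2 scale (SE, n = 5 and 5, limma adjusted p = 0.0205). The ratio was -0.19, -0.14, -0.11, -0.42 and -0.44 on the treated arrays, against 0.11, 0.22, 0.07, 0.14 and 0.10 on the controls. The 2 lowest were those of slide 2. Within slide 1 the change was -0.27, and with the slide as a block it was -0.27 too (limma adjusted p = 0.0620), past the threshold no longer. Without any 1 of SD control 2, SD control 4, SD procainamide 4 or SD procainamide 5 the limma adjusted p lay between 0.0512 and 0.0746. In BN the change of Ascl3 was 0.03 ± 0.09 (limma adjusted p = 0.832).

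In this fit the other members passed no test in the responses. For Itln1 the difference was 0.80 ± 0.30 in BN (limma adjusted p = 0.0606) and 0.44 ± 0.26 in SD (limma adjusted p = 0.422). With the slide as a block the SD value was 0.55 ± 0.12 with a limma adjusted p of 0.0434, past the threshold; with the scan day as a term over all arrays the same 0.55 had an adjusted p of 0.514. In BN Itln1 passed in Cy5 alone (1.08, limma adjusted p = 0.00768) and with array weights (0.97, 0.0232), and the difference was 0.48 without BN control 3 (0.201) and 0.20 with brightness as a term (0.808). Vegfb differed by -0.59 ± 0.40 in BN (limma adjusted p = 0.317), and by 0.07 without BN control 4. Retnla differed by -0.79 ± 0.44 in SD (limma adjusted p = 0.387), and by -0.37 without SD control 2 and -1.17 without SD procainamide 5. Gpr15lg differed by -0.04 ± 0.15 in BN and -0.21 ± 0.14 in SD, and Echdc2 by -0.17 ± 0.12 in BN.

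**Figure D4:**
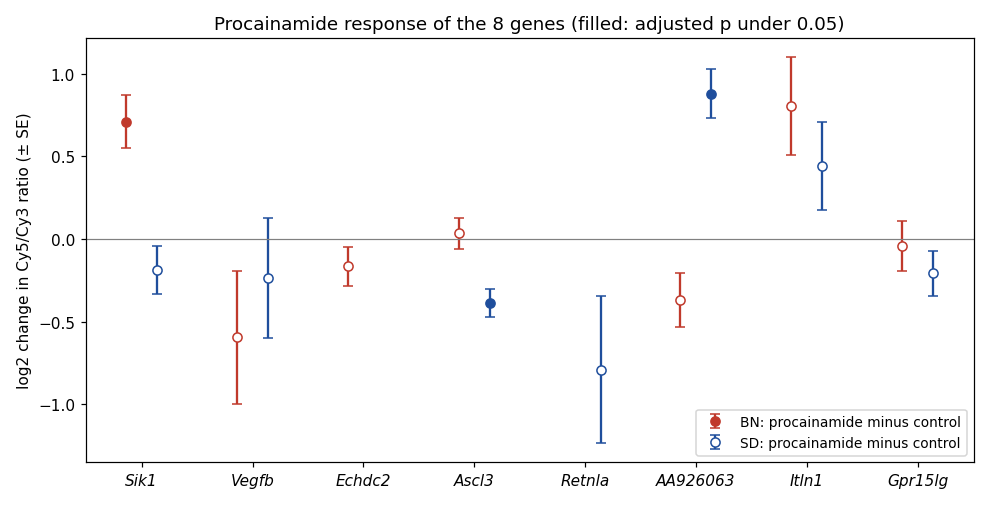
Procainamide minus control of each gene in log2 ratio, in BN and in SD, with standard errors from limma. Filled points passed an adjusted p of 0.05: Sik1 in BN at 0.71, and AA926063 at 0.88 and Ascl3 at -0.39 in SD. Values at background are left out.

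Tested directly, the response differed between the strains for 3 of the 8 genes. Of all probes 11.1% passed this test, 2.59% with a higher and 8.56% with a lower value in BN. In Cy5 this contrast is the strain difference under procainamide minus that in controls, values on which the members were chosen. The members' count is therefore not independent of that choice, and nothing is read from it. The BN response minus the SD response was 0.89 ± 0.22 for Sik1 (limma adjusted p = 0.0133), 0.42 ± 0.13 for Ascl3 (0.0388) and -1.25 ± 0.22 for AA926063 (0.00252). With the scan day as a term none of the 3 passed in limma: the values were 0.67 for Sik1, 0.02 for Ascl3 and -1.61 for AA926063, with adjusted p of 0.836, 0.987 and 0.569. The scan day term is estimated from the SD procainamide arrays alone, so the lost calls do not measure an effect of scan day in BN. The part of slide and scan day in these differences cannot be told apart from treatment in BN. Over all probes the median response was -0.04 in BN and 0.01 in SD.

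The 2 SD procainamide arrays of slide 2 were set against the 3 of slide 1, a comparison in which slide, scan day and sample cannot be told apart. By limma on log2 Cy5, Ascl3 was 0.45 lower on slide 2 (difference -0.45, adjusted p = 0.0261), and 1 of the 8 genes passed, while 7.52% of probes did. Its limma adjusted p was 0.0574 without background correction and 0.319 with the scanner's processed signals. Left out in turn, SD procainamide 2, 3, 4 and 5 ended the call, with adjusted p of 0.0861, 0.0517, 0.0912 and 0.231. AA926063 differed by -0.57 (adjusted p = 0.0740), Retnla by 1.19 (0.256) and Sik1 by 0.35 (0.399).

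The pathways around the members were followed in gene lists. Of 14 regulators of SIK and CREB tested, 3 rose and 1 fell in BN, with a median of -0.08: besides Sik1, Sik3 rose by 0.30 and the CREB coactivator Crtc1 by 0.36, and Fos, an immediate early gene that CREB drives, fell by 0.80 on the log2 scale. In SD 1 fell, Nr4a1, another CREB target, which fell by 0.67, with a median of -0.01. In BN 7.67% of probes rose and 14.1% fell, and in SD 1.36% rose and 1.39% fell. Of 10 VEGF ligands and receptors, Vegfc fell by 0.37 and the receptor Kdr fell by 0.52 in BN, and Kdr fell by 0.51 in SD; the medians were -0.26 and -0.19. Flt1, the receptor of Vegfb, differed by 0.07 ± 0.14 in BN and -0.21 ± 0.13 in SD. Of 18 genes of fatty acid oxidation, Acadl rose by 0.30 and Ech1 fell by 0.55 in BN, and 0 of 18 passed in SD by limma, with 5 at an unadjusted p under 0.05. Of 10 achaete-scute and E protein genes, Ascl2 fell by 0.47 in BN, and Ascl3 was the member that fell in SD.

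Of 15 resistin-like and type 2 macrophage genes, 1 rose and 5 fell in BN, where 7.67% of probes rose and 14.1% fell. Il4r, the interleukin 4 receptor, rose by 0.49. Retn, which encodes resistin, fell by 1.38, Mrc1, the mannose receptor, fell by 1.21, and Arg1, arginase, fell by 0.95. In SD, where 1.36% of probes rose and 1.39% fell, Mrc1 fell by 1.11, with a list median of -0.28. Of 11 intelectin and epithelial secretion genes, Fcgbp and Tff3, both known from mucus, fell in BN: Fcgbp fell by 0.53 and Tff3 fell by 0.37. In SD 0 of 11 passed by limma, with 2 at an unadjusted p under 0.05. Of 9 genes of GPR15 and mucosal homing, the chemokine receptor Ccr10 rose by 0.39 in BN, and Gpr15, the receptor of Gpr15lg, fell by 0.57 in SD.

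Since Ascl3 is known from gland ducts, gland markers were followed too. Of 14 salivary and lacrimal gland genes tested, 6 fell in BN, where 14.1% of probes did, and 4 in SD, where 1.39% did, among them kallikreins. Klk1 fell by 2.86 in BN and fell by 0.71 in SD, and Klk1c2 fell by 2.05 in BN and fell by 1.12 in SD. Klk1b3 fell by 3.86 in BN and differed by -0.69 ± 0.25 in SD (limma adjusted p = 0.155). Besides kallikreins, Car6 passed in both strains and Smgc in BN alone. Krt8, Krt18, Krt19, Epcam, Cdh1, Aqp5, Bpifa2 and Klk1c10 passed in neither strain. The log2 of the summed signal of the 14 lay between 15.05 and 15.42 in BN procainamide arrays and 15.54 and 15.92 in BN controls. In SD it lay between 15.39 and 15.63 under procainamide and 15.52 and 15.96 in controls. In such a sum the brightest genes weigh most. The brightest here was Cdh1, with group means between 14.54 and 14.63. In controls the strains were apart for 2 of these 14 genes, where 35% of all probes were. The part of gland RNA in the values of Ascl3 was not tested. In whole blood, fewer cells of a type and less RNA per cell cannot be told apart.

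Retnla varied widely among SD rats, and its signal was set beside 8 lists of cell type markers over the 10 SD arrays, a comparison chosen after its spread was seen. For the eosinophil and basophil list Pearson's r was 0.553 (permutation p = 0.0989) and Spearman's rho 0.491 (permutation p = 0.155). Over the 8 lists r lay between -0.04 and that value, and the lowest adjusted p was 0.668 for r and 0.619 for rho, so no relation passed. For the eosinophil and basophil list r was 0.779 without the 2 arrays farthest from its median and 0.412 on slide 1. Other lists came as near: rho was highest for the platelet list, at 0.539 (permutation p = 0.115). For the B cell list r was 0.521 (permutation p = 0.167). On slide 1 r was 0.641 for the platelet, 0.591 for the B cell and 0.536 for the gland list. Each list was taken as the log2 of its summed signal, in which the brightest genes weigh most. For the 11 eosinophil and basophil genes it lay between 15.32 and 15.68 in BN procainamide and 15.24 and 16.21 in BN control arrays. In SD it lay between 14.70 and 16.03 under procainamide and 14.66 and 15.89 in controls.

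The genes whose profiles over the 18 arrays were most like the members' were other genes that differ between the strains. For Gpr15lg the nearest was Bcl2l15, with a root mean square difference of 0.23 on the log2 scale after centring, then Hp, with 0.46. Bcl2l15 was nearest to Echdc2 also, at 0.31, and to Itln1, at 0.54, followed by Cyp2d1 (0.37) and Grm4 (0.67). AA926063 was nearest to Cyp2d5 (0.62) and Cyp2d1 (0.66), and Ascl3 to Spmap2l (0.49) and Hbe1 (0.54). Vegfb and Retnla were nearest to RT1-Ba, at 0.89 and 0.79, then to Spmap2l (0.97) and Cela1 (0.92). The nearest to Sik1 were RT1-Ba and Hbe1, at 1.399 and 1.41. The profiles were not scaled, so these distances largely follow the strain differences on which the members were chosen. Nothing further is read from them.

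Most neighbours of the members on the chromosome differed little between the strains. Of 32 neighbours, the nearest 2 named and tested genes on each side in RefSeq's order, 1 differed by more than 1 on the log2 scale in the same direction in both treatments (3.12%), against 142 of 13648 named genes (1.04%). That gene was Retnlg, a resistin-like relative beside Retnla, at -1.22 under procainamide and -1.19 in controls, with overlapping groups. Signal shared between these related sequences was not tested. Around Sik1 the 4 neighbours U2af1, Cryaa, Hsf2bp and Pdxk differed by -0.16 to 0.05 under procainamide and by -0.53 to 0.91 in controls. Around AA926063 the 4 neighbours Zbtb22, Daxx, Kifc1 and Phf1 differed by -0.35 to 0.20 under procainamide and by -0.33 to 0.51 in controls. Around Vegfb the 4 neighbours Ppp1r14b, Fkbp2, Dnajc4 and Nudt22 differed by -0.26 to 0.21 under procainamide and by -0.24 to 0.03 in controls.

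**Figure D5:**
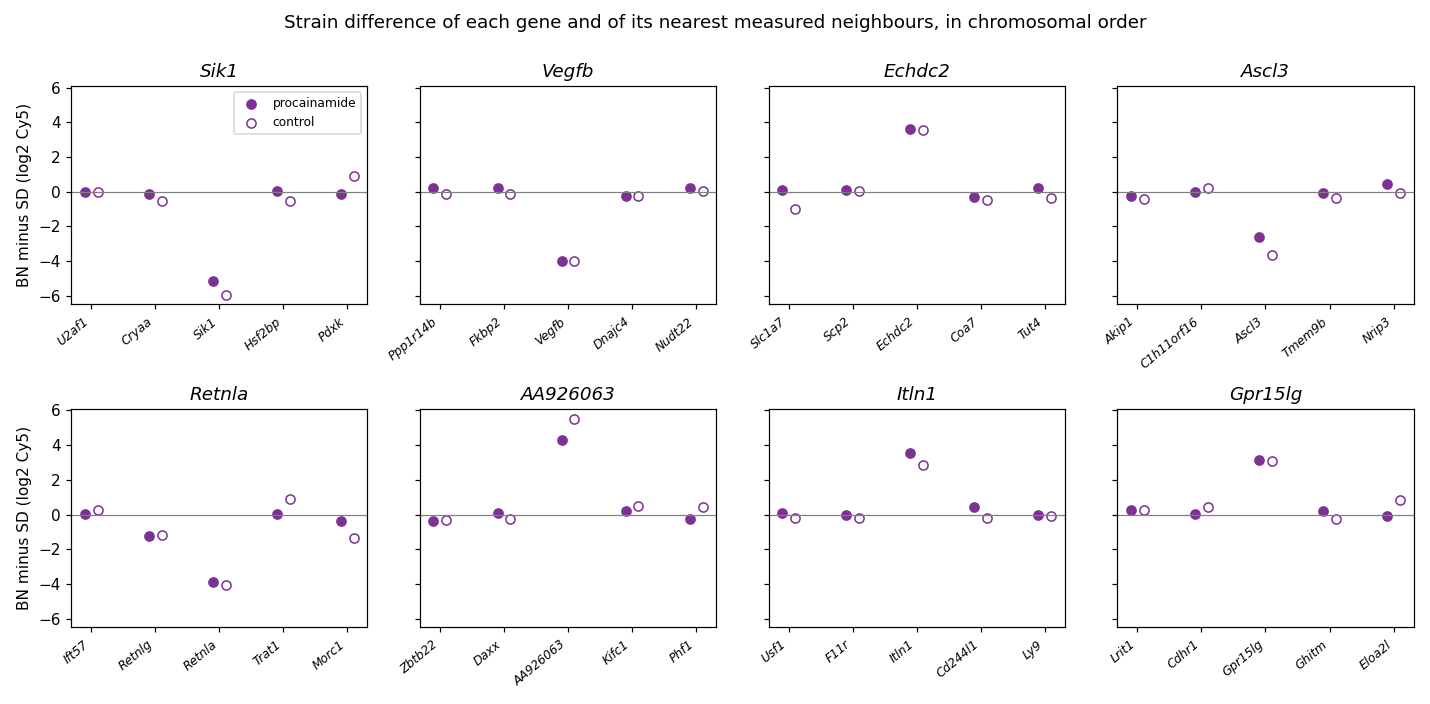
BN minus SD in log2 Cy5 for each gene and its 2 nearest named and tested neighbours on each side, in chromosomal order, under procainamide (filled) and in controls (open). The neighbours lie between -1.36 and 0.91 in controls, and Retnlg at -1.22 under procainamide and -1.19 in controls.

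Each of the 8 genes was measured by 1 probe, so no second probe could be set beside it. Sequence differences between the strains under these probes were not tested. Where the probe had 2 spots, the median difference between them was 0.09 for Sik1, 0.02 for Vegfb and 0.11 for Retnla on the log2 scale. For Echdc2, which was dim in SD, it was 0.50. For Ascl3 on BN control 3 the spots read 16.91 and 7.46 in log2 Cy5; the scanner software had marked the first, and it was left out.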

How the data were processed

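Spot intensities are those of Feature Extraction 10.7.1.1, per the file headers: the deposited median spot and local background intensity in each channel. The same software made the processed intensities and the log10 ratios, per the file headers. A matrix of 25602 probes, of log2 ratios deposited by the authors, has an unstated filter. Against the scanner's ratios taken to base 2 its columns correlated at 0.999 or more, with medians from -0.0140 to 0.0653.

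Intensities were corrected with normexp (offset 50), normalised by loess within arrays and by Aquantile for single channels, in limma 3.58.1 under R 4.3.3. Spots of a probe were averaged, leaving out spots flagged as outliers or non-uniform by the scanner software. Of 30367 probes, 26496 were tested, those well above background in Cy5 on at least 4 of the 18 arrays. All 8 genes passed this filter, Retnla and Echdc2 through the strain in which they are bright. One limma model held a mean for each of the 4 groups (14 residual degrees of freedom, 2-sided tests, Benjamini and Hochberg's adjustment over all probes tested, threshold 0.05). The code was tested on simulated data.

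The members and lists were chosen with earlier results of these data known. Named were the 8 members, for each the 2 genes of most similar profile, up to 3 genes per list of smallest p among those that passed, the genes next to them in strain difference, and their chromosomal neighbours. Crtc1, Il4r, the gland genes other than Klk1 and the neighbours were named after their values were seen, and Flt1 as a known receptor. Alternatives changed the background correction, the ratios, the filter, scan day, brightness, weights, replicate block and slide, and left out each array. Replicate numbers did not pair treated and control arrays: the deviations correlated between -0.523 and 0.129.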

Additional observations from a re-analysis of the deposited data

Results flagged for a closer look

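Of 64 groups of signals examined, 8 held an array whose distance to the nearest other was wide against the range of its group; chance gives about 1 in 20. In log2 Cy5 these were Vegfb on BN control 4 at 11.75, Gpr15lg on BN procainamide 3 at 12.27 and Echdc2 on BN procainamide 1 at 9.63. In SD they were Sik1 on SD control 2 at 13.49 and Vegfb on SD procainamide 3 at 12.96. In log2 Cy3 they were Gpr15lg on BN procainamide 3 at 11.91, Itln1 on BN control 2 at 9.86 and AA926063 on SD procainamide 1 at 8.99.

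The response to procainamide differed between the strains by limma's test of the difference for Sik1 (BN minus SD response 0.89), Ascl3 (0.42) and AA926063 (-1.25). That test is not independent of the choice of the members. Treatment, slide and scan day cannot be told apart in BN.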

How the results depend on the processing

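The strain differences kept their direction, and the strains stayed apart for all 8 genes, under no background correction, the scanner's processed signals, Rquantile, the Cy3 channel and without each array. Leaving out an array could not end a separation that held over all 18, and the members were chosen on this contrast. These outcomes therefore describe the values and carry no test. In BN 1 gene passed in response: it was 3 in Cy5 alone, 2 with array weights, 0 with scan day or brightness as a term, and 1 to 2 when leaving out each array. With 0 passed in limma, 1 and 0 genes had an unadjusted p under 0.05. The BN response of Itln1 passed when BN control 1 (limma adjusted p = 0.0365), BN control 2 (0.0261) or BN procainamide 1 (0.0129) was left out, and was 0.48 without BN control 3 (0.201). In SD 2 genes passed: it was 1 with the scanner's log ratios, the authors' deposited log2 matrix, scan day, brightness or the replicate block, and 1 to 2 when leaving out each array. For the strain difference in response 3 passed: it was 0 with scan day or brightness (1 gene each at an unadjusted p under 0.05 in limma), 1 with the replicate block and 2 to 3 when leaving out each array. The call of Ascl3 was lost there in 12 of 18 cases, with limma adjusted p over all 18 between 0.0274 and 0.0885. For the slide difference 1 passed: it was 0 without background correction (2 genes at an unadjusted p under 0.05 in limma), 3 in Cy3 and 0 to 1 when leaving out each array. Vegfb in BN turned to 0.19 with brightness, and lay between -0.88 and 0.07 (0.0653, without BN control 4) when leaving out each array. The replicate block changed the calls of Ascl3 in SD, and of Sik1 and Ascl3 in the strain difference in response.

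Over all probes, 5768 passed in BN, against 10191 in Cy5 alone, 211 with scan day, 685 with brightness and 3584 with the replicate block. In SD 727 passed, against 254 with scan day, 425 with brightness, 2601 with array weights, 129 with the replicate block and 235 to 983 without each array. For the strain difference in response 2952 passed, against 9119 in Cy5 alone, 0 with scan day (1535 at an unadjusted p under 0.05 in limma), 6 with brightness, 1386 with the replicate block and 1904 without BN control 4. The causes were not tested. Setting other probes of a gene beside the main one was not run, since each gene has 1 probe. Signal near background limits Retnla in BN and Echdc2 in SD.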
